A study of Mus musculus with 2 samples.

Results

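The insulin and insulin-like growth factor (IGF) receptor pathway was followed through 9 genes, Insr, Igf1r, Insrr, Irs1, Irs2, Pik3r1, Akt1, Akt2 and Foxo1, in single islet cells of mice. The genes were chosen by symbol, and each of the 9 symbols matched 1 of the 32285 gene IDs in the deposited matrices. The CDS group was given CDS at 10 mg/kg and the Saline group was given saline, and in both groups the animals were DIO mice, as the labels call them, whose islets were taken after 2 weeks. Each group is 1 droplet library. The series title concerns an antagonist of the alpha2A-adrenergic receptor, and the labels do not say what CDS stands for. The sources used here do not give the strain, sex and age of the mice or how many were behind a library. Islets had been freed with collagenase and picked by eye, with no cell sort stated.

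As background, insulin and the IGFs bind the receptor tyrosine kinases encoded by Insr and Igf1r, and Insrr encodes a related receptor that does not bind insulin and responds to alkaline pH. The activated receptors phosphorylate the adaptor proteins IRS1 and IRS2, these recruit phosphatidylinositol 3-kinase (PI3K) through its regulatory subunit p85-alpha, encoded by Pik3r1, and the lipid made there brings the kinases AKT1 and AKT2 to the membrane. AKT phosphorylates FOXO1, which then leaves the nucleus, and in mouse beta cells IRS2 is the adaptor best known for maintaining beta cell mass.

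The unit throughout is the UMI (unique molecular identifier), which stands for 1 captured RNA molecule. The CDS library held 141191447 UMIs in 7268 barcodes and the Saline library 124343325 UMIs in 12453 barcodes, and 25 barcode sequences occurred in both. After filters, 6159 CDS cells and 10977 Saline cells were left, with medians of 19069 and 9794 UMIs per cell and of 1.42% and 2.47% mitochondrial UMIs. The cells formed 25 clusters, which marker genes placed in 13 classes, while 4 clusters stayed unnamed, the largest of them with 482 CDS and 206 Saline cells led by acinar genes. Its marker score was highest for beta cells, at 1.07, beside 0.867 for acinar cells. By hormone RNA alone, 510 CDS and 395 Saline cells of the unnamed clusters would be beta-like, and they are not in the beta-like sums. The cell type label names beta cells, and the beta-like class held 3305 CDS cells and 4987 Saline cells, beside alpha-like (870 and 926), delta-like (478 and 553), PP-like (221 and 150), endothelial-like (263 and 342) and macrophage-like cells (158 and 163). T-like cells numbered 12 in the CDS library and 1259 in the Saline library, and B-like cells 35 and 1187. Insulin RNA made up 2.15% of UMIs in CDS and 1.89% in Saline alpha-like cells, and 5.92% and 3.73% in macrophage-like cells, so insulin RNA was found in classes that do not make it. With 1 library per group no difference between groups can be tested, the treatment cannot be told apart from the library, and each 95% interval below covers counting error only.

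Gene positions follow build mm10 and the GENCODE M21 annotation, with coordinates counted from 1. Insr (ENSMUSG00000005534) spans 3122061 to 3279617 on the minus strand of chromosome 8, a span of 158 kb. Igf1r (ENSMUSG00000005533) is the longest of the 9, with 280.8 kb from 67952827 to 68233668 on the plus strand of chromosome 7. Insrr (ENSMUSG00000005640) covers 19.2 kb of chromosome 3 from 87796951 to 87816101 on the plus strand, and Pear1 overlaps it on the other strand. Irs1 (ENSMUSG00000055980) covers 58.3 kb of chromosome 1 from 82233101 to 82291416 on the minus strand. Irs2 (ENSMUSG00000038894) covers 23.8 kb of chromosome 8 from 10984681 to 11008458 on the minus strand and overlaps 9530052E02Rik on the other strand. The sources used here do not say how strand was handled in counting, and over all named classes Pear1 had 763 UMIs beside 9537 for Insrr and 9530052E02Rik 2645 beside 22144 for Irs2. Pik3r1 (ENSMUSG00000041417) covers 87.7 kb of chromosome 13 from 101680563 to 101768217 on the minus strand. Akt1 (ENSMUSG00000001729) covers 21.1 kb of chromosome 12 from 112653821 to 112674884 on the minus strand. Akt2 (ENSMUSG00000004056) covers 49.3 kb of chromosome 7 from 27591552 to 27640826 on the plus strand. Foxo1 (ENSMUSG00000044167) covers 84.9 kb of chromosome 3 from 52268336 to 52353221 on the plus strand.

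The promoters of Irs1, Irs2 and Akt1 are shown because the ratios of CDS over Saline described below were under 1 for both adaptor genes, and over 1 for Akt1, in each endocrine class where the gene was measured. The 250 bases before a RefSeq start (GRCm38.p6) were searched on both strands for CACGTG, the E-box, for TGTTTTG, the core of the element through which FOXO proteins act on insulin-regulated promoters, for GTAAACA, a forkhead site, and for TGACGTCA, the full cyclic AMP response element, with capitals marking matches. The Irs1 window is chr1:82291440-82291689, the Irs2 window chr8:11008930-11009179 and the Akt1 window, which adjoins the annotated gene start, chr12:112674885-112675134, all read 5' to 3' on the minus strand.
Irs1: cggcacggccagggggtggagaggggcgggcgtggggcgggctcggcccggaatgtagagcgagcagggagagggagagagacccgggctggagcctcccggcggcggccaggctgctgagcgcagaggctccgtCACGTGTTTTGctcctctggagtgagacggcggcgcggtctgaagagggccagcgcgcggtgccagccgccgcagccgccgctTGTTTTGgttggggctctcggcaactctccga
Irs2: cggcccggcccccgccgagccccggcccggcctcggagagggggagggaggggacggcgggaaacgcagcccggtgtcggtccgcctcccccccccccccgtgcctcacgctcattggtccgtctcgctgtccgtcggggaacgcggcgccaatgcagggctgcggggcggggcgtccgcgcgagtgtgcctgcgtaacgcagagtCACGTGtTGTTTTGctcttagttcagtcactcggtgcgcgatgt
Akt1: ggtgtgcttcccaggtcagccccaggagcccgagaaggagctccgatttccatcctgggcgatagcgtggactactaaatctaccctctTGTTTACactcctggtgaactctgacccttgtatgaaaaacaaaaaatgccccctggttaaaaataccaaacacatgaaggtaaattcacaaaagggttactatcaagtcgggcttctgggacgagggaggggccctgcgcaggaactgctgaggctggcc
Irs1 holds CACGTG 115 bases before its start and TGTTTTG at 111 and at 32 bases, and its CACGTG and the first TGTTTTG share the letters TG. Irs2 holds CACGTG 44 bases and TGTTTTG 37 bases before its start. Among 32851 RefSeq promoter windows of the same length, 6.02% held CACGTG, 5.56% held TGTTTTG and 0.295% held both. Akt1 has another RefSeq window, chr12:112674277-112674526, which holds none of the 4 motifs. The Akt1 window printed holds TGTTTAC, the reverse complement of GTAAACA, 161 bases before the start, as 3.17% of windows hold it on either strand. TGACGTCA was in 1.55% of windows and in none of the 12 windows of the 7 matched members, which are Igf1r, Irs1, Irs2, Pik3r1, Akt1, Akt2 and Foxo1. These letters were chosen after the promoters had been read, and a match is a description of sequence, not a binding site.

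Levels are given in CPM, the share of a gene in the UMIs summed over the cells of a class on the usual CPM scale, with the sums scaled by trimmed-mean (TMM) factors. These factors were set within each class, between its CDS and Saline sums, and are 1 for a class with enough cells only in Saline, so they do not put different classes on 1 scale. Levels are compared across classes within a gene, for classes with at least 50 cells in a library, and values under factors set over all class sums together, or with hormone, acinar and mitochondrial genes left out of the totals, are given where they change a statement. No member was among the 2000 variable genes that placed the cells in clusters.

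The receptor genes differed in where they were highest. Insr was highest in endothelial-like cells, with 153 CPM in CDS and 212 CPM in Saline cells, and Igf1r was highest among CDS classes in beta-like cells. Among the endocrine classes Insr was highest in alpha-like cells at 71.8 CPM in CDS and 86.1 CPM in Saline and stood in delta-like cells at 39.0 and 60.8 CPM, while beta-like cells, the source of insulin, had 27.5 CPM (26.4 to 28.7) in CDS and 39.9 CPM (38.6 to 41.3) in Saline. Alpha-like cells therefore held 2.61 times the beta-like level in CDS (2.40 to 2.84) and 2.16 times in Saline (1.98 to 2.34), and endothelial-like cells 5.55 times in CDS (4.93 to 6.23) and 5.31 times in Saline (4.82 to 5.83), values that were 3.31 and 2.99 without hormone, acinar and mitochondrial genes in the totals. Delta-like cells held 1.42 times the beta-like level in CDS and 1.52 times in Saline, but 1.03 and 1.07 times with factors over all class sums. The delta-like and PP-like levels of Insr did not differ beyond counting error in either library. Among classes with enough cells only in the Saline library, Insr reached 116 CPM in dendritic-like and 7.73 CPM in plasma-like cells, the lowest level of any class there.

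Igf1r, the receptor for IGF1, ran the other way. Beta-like cells had 275 CPM (271 to 278) in CDS and 267 CPM (263 to 270.1) in Saline, delta-like cells 137 and 145 CPM, endothelial-like cells 94.96 and 140.1 CPM and alpha-like cells 53.8 and 71.7 CPM. The beta-like level was 5.11 times the alpha-like level in CDS (4.70 to 5.57) and 3.72 times in Saline (3.42 to 4.05), and 2.01 times the delta-like level in CDS and 1.84 times in Saline. In the Saline library ductal-like cells stood at 279 CPM (239 to 323), level with beta-like cells on this scale, while with factors over all class sums they had 229 CPM (197 to 265), against 347 CPM (343 to 351) in beta-like cells. B-like cells had 37.3 CPM, which is 0.97 times what their insulin RNA would bring along if it all came from beta cells, and plasma-like cells 25.5 CPM or 0.80 times that amount, so no level above that background was detectable in either. Stromal-like cells differed between the libraries. CDS ones, with 40 UMIs in 70 cells, were at background as well, at 60.4 CPM or 0.95 times. Saline ones, with 213 UMIs in 172 cells, stood at 126 CPM (110 to 145) or 1.86 times. Insrr was highest in beta-like cells, with 41.4 CPM in CDS and 64.1 CPM in Saline beta-like cells, 11.7 times the alpha-like level in CDS (8.47 to 16.8) and 10.4 times in Saline (7.82 to 14.0), or 16.8 and 16.3 times without hormone, acinar and mitochondrial genes in the totals. Delta-like cells had 11.2 CPM in CDS and 17.8 CPM in Saline, 1.74 and 2.51 times what beta cell RNA would bring. Every class besides these lay between 0.41 and 1.82 times that amount, a range that also takes in the CDS delta-like value.

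Among the adaptors, Irs2 was highest in alpha-like cells. Alpha-like cells had 167 CPM (159 to 175) in CDS and 211 CPM (201 to 221) in Saline, delta-like cells 135 and 167 CPM, and beta-like cells 80.2 and 97.0 CPM. Endothelial-like cells had 12.9 CPM in CDS and 28.3 CPM in Saline, so that the alpha-like level was 12.9 times higher in CDS (8.92 to 19.5) and 7.45 times higher in Saline (5.83 to 9.68). The order alpha-like, delta-like, beta-like held in both libraries with intervals apart, also with factors over all class sums. In the Saline library plasma-like cells had 131 CPM (112 to 153), above beta-like cells and 11.3 times what beta cell RNA would bring, and B-like cells had 98.8 CPM (87.5 to 111). With factors over all class sums the plasma-like level was 167 CPM (142 to 194), and its interval overlapped that of delta-like cells at 152 CPM (143 to 162). On that scale the plasma-like interval overlapped that of Saline alpha-like cells as well. Irs1 was sparse, with 9.50 CPM in CDS and 12.5 CPM in Saline alpha-like cells and 8.37 and 11.4 CPM in beta-like cells, a ratio of alpha-like to beta-like of 1.13 in CDS (0.907 to 1.41) and 1.09 in Saline (0.881 to 1.35). That ratio was 0.794 in CDS and 0.697 in Saline without hormone, acinar and mitochondrial genes in the totals, and 0.820 and 0.765 with factors over all class sums, so the data give no order of these classes for Irs1. Outside the endocrine classes Irs1 was at most 4.75 CPM, and no UMI was seen in stromal-like CDS cells or in acinar-like and dendritic-like Saline cells, where the counts allow up to 5.57, 4.75 and 7.26 CPM (exact upper limits).

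Pik3r1, the p85-alpha subunit, was highest in macrophage-like cells in CDS and in dendritic-like cells in Saline. The CDS library held 14 dendritic-like cells, too few for a level, so that class was not ranked there. Macrophage-like cells had 127 CPM in CDS and 170.0 CPM in Saline, against 45.4 and 52.3 CPM in alpha-like cells, 2.79 times as much in CDS (2.36 to 3.29) and 3.25 times in Saline (2.72 to 3.88). Beta-like cells had 71.0 CPM in CDS and 99.0 CPM in Saline. The 114 dendritic-like cells of the Saline library stood above every other class at 1129 CPM (1039 to 1226). Akt1 was highest among CDS classes in endothelial-like cells at 82.1 CPM, within counting error of macrophage-like cells at 70.4 CPM, and in Saline the macrophage-like, ductal-like, endothelial-like and stromal-like levels, from 59.7 to 53.4 CPM, overlapped. Akt2, the isoform known for insulin-stimulated glucose uptake, had 57.3 CPM in CDS and 55.3 CPM in Saline alpha-like cells, 2.04 times the delta-like level in CDS (1.74 to 2.40) and 1.90 times in Saline (1.6 to 2.27), and 49.99 CPM in CDS and 48.9 CPM in Saline beta-like cells. With factors over all class sums Akt2 was higher in beta-like cells, at 60.03 CPM in CDS and 63.6 CPM in Saline, than in alpha-like cells, at 49.7 and 50.3 CPM.

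Foxo1 was highest in endothelial-like cells among CDS classes, at 214 CPM, and stood at 237 CPM in the same class in Saline, where B-like cells reached 261 CPM (243 to 281) and T-like cells 190.1 CPM (175 to 206). Beta-like cells had 65.0 CPM in CDS and 84.2 CPM in Saline, so endothelial-like cells held 3.29 times as much in CDS (2.99 to 3.62) and 2.82 times in Saline (2.58 to 3.07), or 1.97 and 1.59 times without hormone, acinar and mitochondrial genes in the totals. Alpha-like cells held 1.55 times the beta-like level in CDS and 1.32 times in Saline, and the Saline value turned to 0.842 when hormone, acinar and mitochondrial genes were left out of the totals and to 0.924 with TMM factors set over all class sums together. The same change of totals moved the following contrasts with beta-like cells, whose UMIs were 40.5% insulin RNA in CDS and 34.7% in Saline, without turning them. Without those genes Insr in alpha-like cells was 1.83 times the beta-like level in CDS and 1.37 times in Saline, Irs2 1.46 and 1.38 times, and Igf1r in beta-like cells 7.30 and 5.83 times the alpha-like level.

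**Figure D1:**
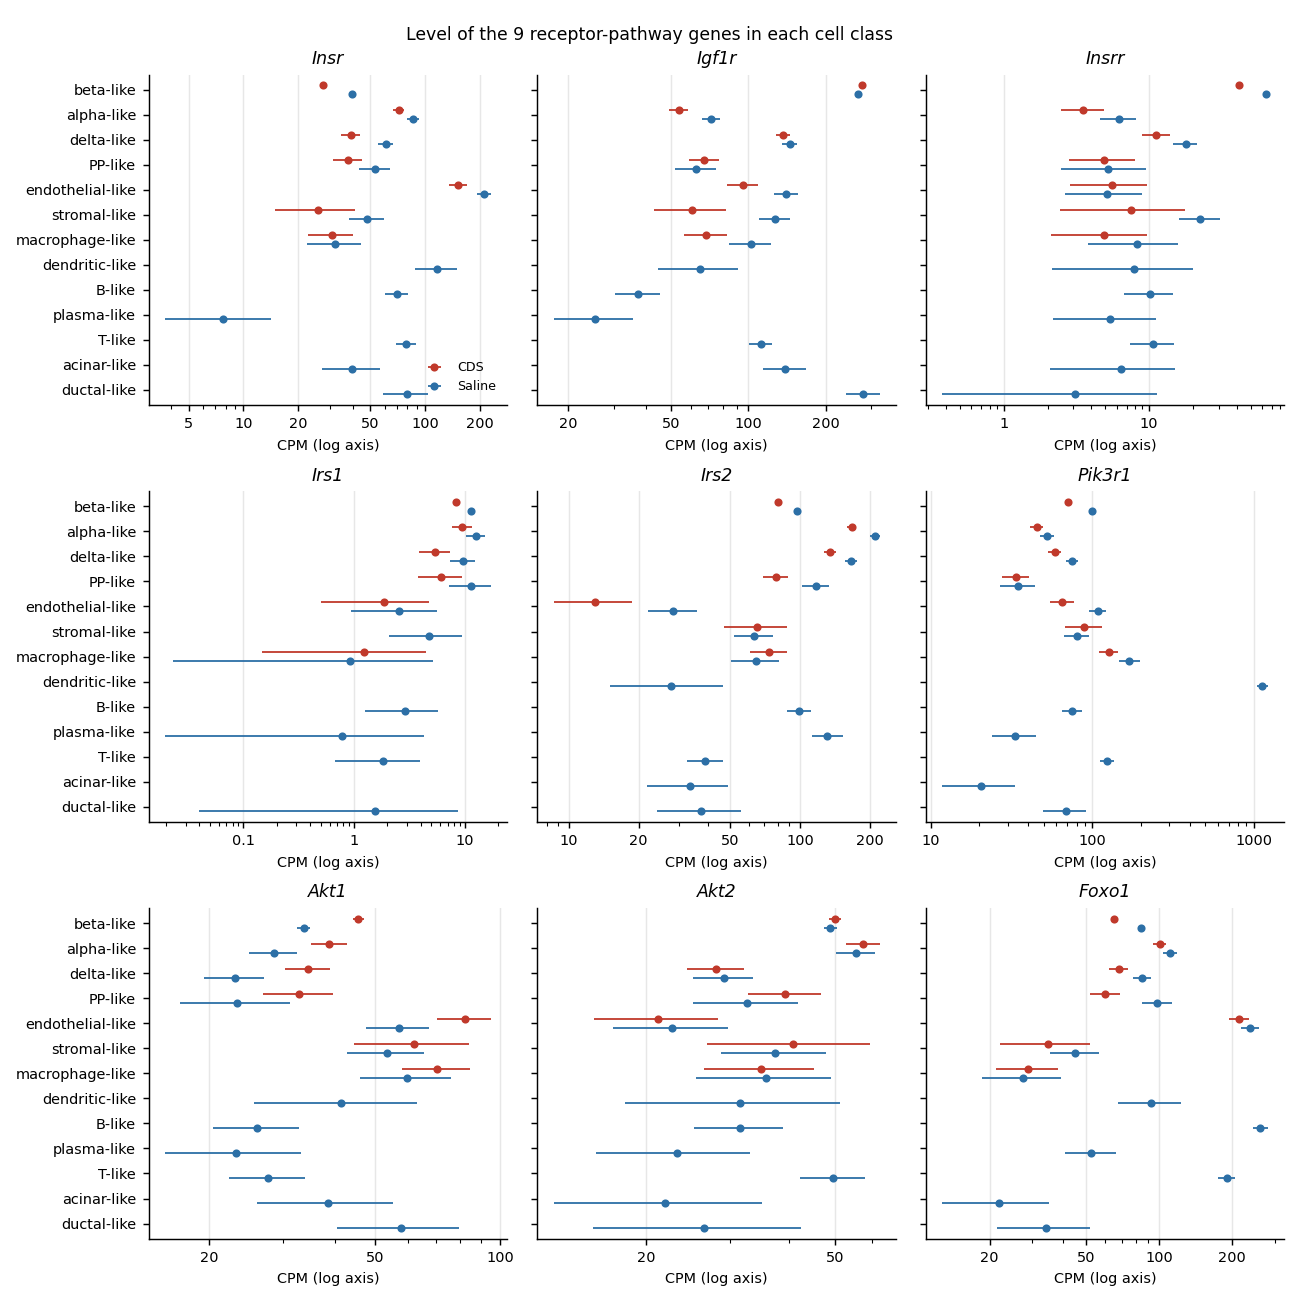
Level of each of the 9 genes (CPM, log axis) in each cell class with at least 50 cells, CDS in red above Saline in blue, points with exact Poisson 95% intervals that cover counting error only. Endothelial-like cells sit highest for Insr at 153 and 212 CPM, beta-like cells for Insrr at 41.4 and 64.1 CPM, and dendritic-like cells of the Saline library for Pik3r1 at 1129 CPM. The 3 class sums with no UMI of Irs1 are not drawn.

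The CDS library was next set against the Saline library within each class that had at least 100 cells in both. A gene counted as measured if it had 100 or more UMIs in all and 1 or more in each library, as lower if its ratio of CDS over Saline was 0.8 or less, and as higher if the inverse ratio was 0.8 or less. In beta-like cells 5 of the 9 genes were lower, 1 was higher and 3 lay between, against 21.8% of all 13865 measured genes that were lower and 28.3% that were higher. The median log2 ratio of the 9 genes was -0.37, beside 0.04 over all measured genes.

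Insr had 27.5 CPM in CDS beta-like cells, against 39.9 CPM in Saline ones, a ratio of 0.689 (0.653 to 0.726). Insrr had 41.4 CPM, against 64.1 CPM, a ratio of 0.646 (0.619 to 0.674), the lowest of the 9. Igf1r had 275 CPM, against 267 CPM, a ratio of 1.03 (1.01 to 1.05). Of the receptors, then, Insr and Insrr were lower in the CDS library and Igf1r, which stayed above 1 under 10 of the 15 alternative settings that could change it, was close to its Saline level. Irs1 had 8.37 CPM in CDS, against 11.4 CPM in Saline (ratio 0.733, 0.664 to 0.808), and Irs2 had 80.2 CPM, against 97.0 CPM (ratio 0.827, 0.8 to 0.854), just inside the limit. Pik3r1 had 71.0 CPM in CDS, against 99.0 CPM in Saline (ratio 0.717, 0.693 to 0.741), and Foxo1 65.0 CPM, against 84.2 CPM (ratio 0.771, 0.745 to 0.799). The AKT genes did not share this direction. Akt1 had 45.6 CPM in CDS, against 33.7 CPM in Saline, a ratio of 1.35 (1.29 to 1.42), and Akt2 49.99 CPM, against 48.9 CPM, a ratio of 1.02 (0.979 to 1.07). The counts moved with the scaling. With plain CPM the median of all genes in beta-like cells was -0.33 on the log2 scale, 8 of the 9 genes were lower beside 50.8% of all measured genes, and Akt1, at a ratio of 1.05, was the only one of the 9 above 1. Median depth was 27787 UMIs in CDS and 15541 UMIs in Saline beta-like cells. Cells of at least 5000 UMIs were also thinned to an expected 5000 UMIs each. The ratio of Insr was then below 1 and that of Akt1 above 1. This thinning only gives each cell the same weight in the sum, so it cannot test an effect of depth on the ratios. The beta-like cells of the libraries also lay mostly in different clusters, described further on.

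In alpha-like cells 3 of 8 measured members were lower and 1 was higher, against 13.7% and 18.9% of all measured genes. Igf1r had 53.8 CPM in CDS and 71.7 CPM in Saline alpha-like cells (ratio 0.749, 0.665 to 0.844), Irs1 9.50 and 12.5 CPM (ratio 0.760, 0.568 to 1.02) and Irs2 167 and 211 CPM (ratio 0.793, 0.741 to 0.849). Akt1 had 38.8 CPM in CDS, against 28.5 CPM in Saline, a ratio of 1.36 (1.15 to 1.61). Insr, at 0.833 (0.750 to 0.926), and Foxo1, at 0.906 (0.827 to 0.992), stayed between the limits, and Insrr had too few UMIs to be measured. The ratio of Igf1r in alpha-like cells became 1.05 when cells called as doublets were kept, and the fewest cells that together held 50% of its UMIs were 71 of 870 CDS cells, with up to 50 UMIs in a cell, and 95 of 926 Saline cells, with up to 10.

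In delta-like cells 5 of 9 members were lower and 1 was higher, against 19.8% and 23.9% of all measured genes. Irs1 had 5.34 CPM in CDS and 9.60 CPM in Saline (ratio 0.557, 0.364 to 0.843), Insrr 11.2 and 17.8 CPM (ratio 0.631, 0.470 to 0.844) and Insr 39.0 and 60.8 CPM (ratio 0.642, 0.550 to 0.749). Pik3r1, at 0.781, and Foxo1, at 0.797, were just past the limit. Akt1 had 34.5 CPM in CDS, against 23.0 CPM in Saline, a ratio of 1.5 (1.22 to 1.85). Insulin RNA was 6.75% of UMIs in CDS and 3.58% in Saline delta-like cells, and its part in the Insrr values of this class was not tested. By hormone RNA alone, 231 of the 478 CDS cells and 355 of the 553 Saline cells of the class would be delta-like. Another 219 CDS and 178 Saline cells would get no name.

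The smaller classes had wider intervals. In PP-like cells 3 of 7 measured members were lower and 1 was higher, against 24.4% and 28.2% of all measured genes, with Foxo1 at 60.04 CPM in CDS and 98.0 CPM in Saline (ratio 0.612, 0.499 to 0.752) and Irs2 at 78.4 and 117 CPM (ratio 0.672, 0.560 to 0.807). By hormone RNA alone, 111 of the 221 CDS cells and 27 of the 150 Saline cells of the PP-like class would be alpha-like, so the class was mixed unequally. In endothelial-like cells 3 of 5 measured members were lower and 1 was higher, against 19.6% and 24.8% of all measured genes. Pik3r1 had 65.0 CPM in CDS and 108 CPM in Saline endothelial-like cells (ratio 0.602, 0.487 to 0.743), Igf1r 94.96 and 140.1 CPM (ratio 0.678, 0.567 to 0.810) and Insr 153 and 212 CPM (ratio 0.720, 0.624 to 0.829), beside Akt1 at 82.1 and 57.0 CPM (ratio 1.44, 1.14 to 1.82). In macrophage-like cells 2 of 4 measured members were lower and 0 higher, against 25.9% and 24.7% of all measured genes, with Igf1r at a ratio of 0.673 (0.513 to 0.883), Pik3r1 at 0.746 (0.609 to 0.915) and Akt1 at 1.18 (0.863 to 1.62).

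**Figure D2:**
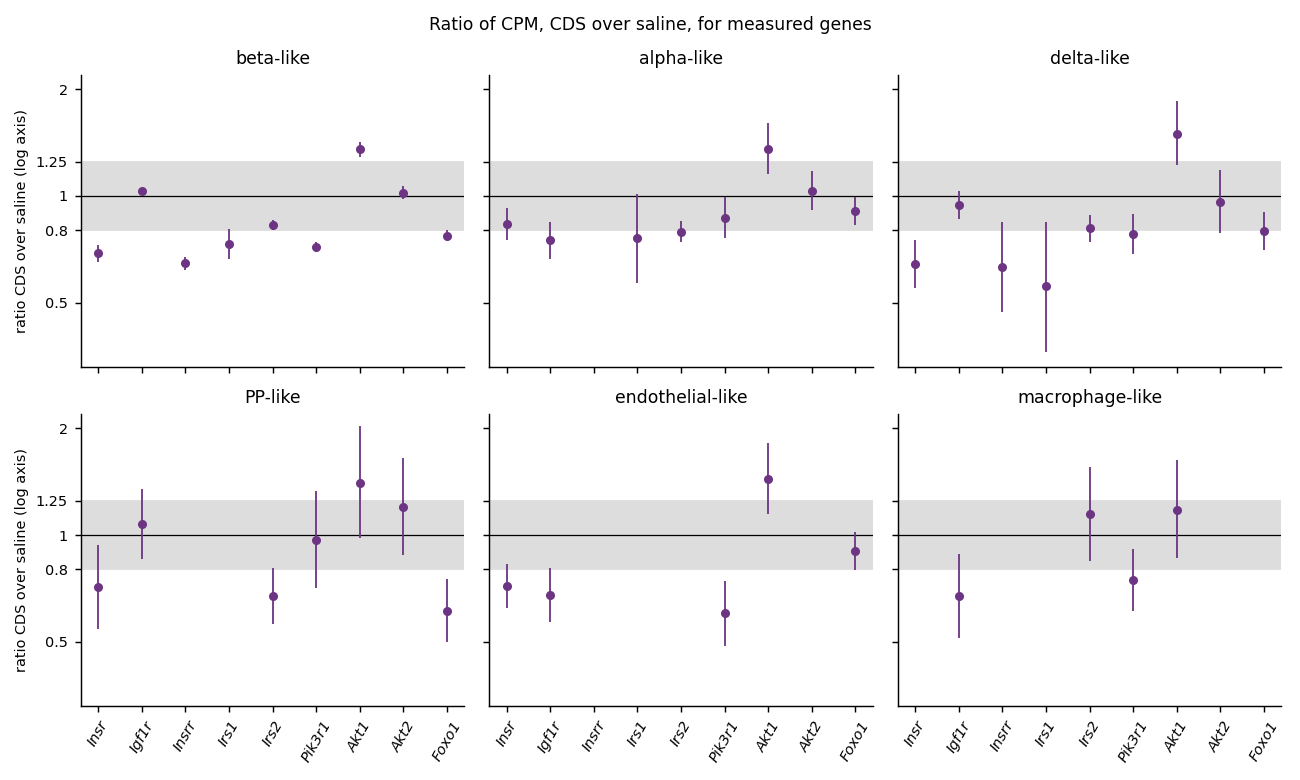
Ratio of CPM, CDS over Saline (log axis), for each measured gene in 6 cell classes, with exact conditional 95% intervals that cover counting error only and a grey band between the limits of 0.8 and its inverse. Akt1 lies above 1 in all 6 panels, from 1.18 in macrophage-like to 1.5 in delta-like cells, with intervals that reach below 1 in the PP-like and macrophage-like panels, and Insr lies below 1 in the 5 panels where it was measured.

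The ratios moved with the length of genes. Across the 13860 measured genes of beta-like cells with an annotated span, the log2 ratio and the span had a Spearman correlation of -0.62, given as a description across genes of 1 pair of libraries, and the other classes with ratios had correlations from -0.52 to -0.69. With these genes in 5 equal bins of span, the shortest bin, with a median of 4.13 kb, had a median log2 ratio of 0.51, and the longest, with a median of 131 kb, had -0.38. Against the running median of genes of like span, Insr in beta-like cells was at -0.13 on the log2 scale, Pik3r1 at -0.23, Foxo1 at -0.13 and Irs1 at -0.26, all 4 within the limits. Insrr, a short gene, was at -0.77 and Irs2 at -0.34, both past the lower limit, while Akt1 was at 0.34 and the long gene Igf1r at 0.58, both past the upper limit. So 2 members were lower and 2 higher on this measure in beta-like cells, beside 15.9% and 17.2% of all genes. In alpha-like cells Irs2 at -0.41 and Akt1 at 0.36 were the members past the limits, beside 11.3% of all genes lower and 10.1% higher. In delta-like cells they were Insrr at -0.78, Irs1 at -0.70, Irs2 at -0.41, Igf1r at 0.40 and Akt1 at 0.48, beside 12.3% lower and 12.6% higher. The part of this length trend in the plain ratios was not tested.

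**Figure D3:**
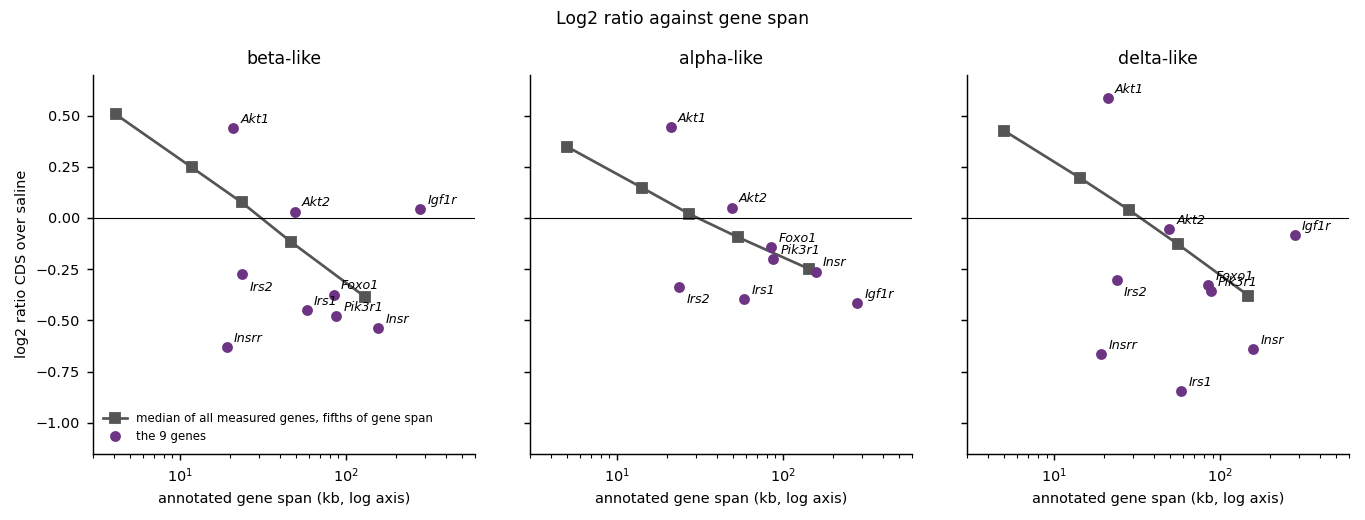
Log2 ratio of CDS over Saline against annotated gene span (kb, log axis) in beta-like, alpha-like and delta-like cells, with purple points for the measured members and grey squares for the median of all measured genes in each of 5 bins of span. Insr, Pik3r1 and Foxo1 lie near the grey line, while Akt1 lies above it and Irs2 below it. Distances were taken from the running median of genes of like span, which is not drawn. Against it Insr, Pik3r1 and Foxo1 were within 0.26 in log2 in these classes. Akt1 was at 0.34 to 0.48 and Irs2 at -0.34 to -0.41.

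Beta-like cells of the libraries fell mostly into different clusters. Cluster 5, led by Mt2, Mt1 and Hmox1, held 921 CDS and 222 Saline cells, and cluster 7, with Ins1, Ins2 and Iapp among its leading genes, held 868 and 206. Cluster 0, with Slc2a2, Mafa, Ucn3 and Insrr among its leading genes, held 339 CDS and 1785 Saline cells, cluster 2, led by Gabbr2 and Sgcz, 226 and 1088, and cluster 6, led by Sgcz, 140 and 945. Cluster 9, led by Pdyn and Ttyh1, with 538 CDS and 427 Saline cells, and cluster 12, led by Lcn2 and fibrinogen genes, with 259 and 260, were more even. The members varied among these clusters within a library, with cluster levels given as plain CPM without TMM factors. Insr ran from 16.3 CPM in cluster 7 to 84.2 CPM in cluster 6 in CDS, and from 24.5 CPM in cluster 7 to 68.9 CPM in cluster 6 in Saline. Igf1r was lowest in cluster 7 in both libraries among the clusters with at least 50 cells in each, at 118 CPM in CDS and 146 CPM in Saline, and highest in cluster 6 in CDS, at 478 CPM, and in cluster 12 in Saline, at 684 CPM. Factors set over all cluster sums were 1.36 for cluster 6 and 0.95 for cluster 12 in CDS. With them cluster 12, not cluster 6, would be highest for Igf1r in CDS. Cluster 7 had factors of 0.703 in CDS and 0.780 in Saline, and cluster 6 had 1.24 in Saline. Levels are divided by these factors, so with them the range of Insr would be narrower in both libraries. In Saline cluster 0 had a factor of 1.01, and its Igf1r level would then be close to that of cluster 7. Insrr was highest in cluster 6 at 113 CPM in CDS and 125 CPM in Saline and lowest in cluster 12 at 18.3 and 27.3 CPM. Akt1 varied less, from 35.7 to 46.6 CPM in CDS and from 23.5 to 40.8 CPM in Saline over the same 7 clusters, as did Akt2, from 36.1 to 57.7 CPM in CDS and from 40.6 to 65.6 CPM in Saline.

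Within each of the 7 beta-like clusters with at least 50 cells in both libraries, each scaled on its own, Insr was below 1 in 6, and all 6 of those intervals lay below 1, with ratios from 0.572 in cluster 12 to 1.12 in cluster 6 and a geometric mean of 0.767. Akt1 lay above 1 with its interval in 6 clusters, from 0.979 in cluster 6 to 1.64 in cluster 7, with a geometric mean of 1.27. Igf1r split, at 1.14, 1.10 and 1.48 in clusters 0, 2 and 6, which are mostly Saline cells, and at 0.685, 0.876, 0.829 and 0.722 in clusters 5, 7, 9 and 12, with each interval on its own side of 1. Foxo1 ranged from 0.881 to 0.982, Pik3r1 from 0.680 to 0.957 and Irs2 from 0.722 to 1.22, with geometric means of 0.929, 0.852 and 0.952, nearer to 1 than the ratios of the whole class. Insrr ranged from 0.601 in cluster 5 to 1.11 in cluster 7, with a geometric mean of 0.825. By geometric mean 1 of the 9 genes, Insr, was lower and 1, Akt1, higher. No share over all measured genes is at hand for this measure, so the count does not set the members apart from other genes. The clusters were built from the same cells, so these values describe them and test nothing.

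**Figure D4:**
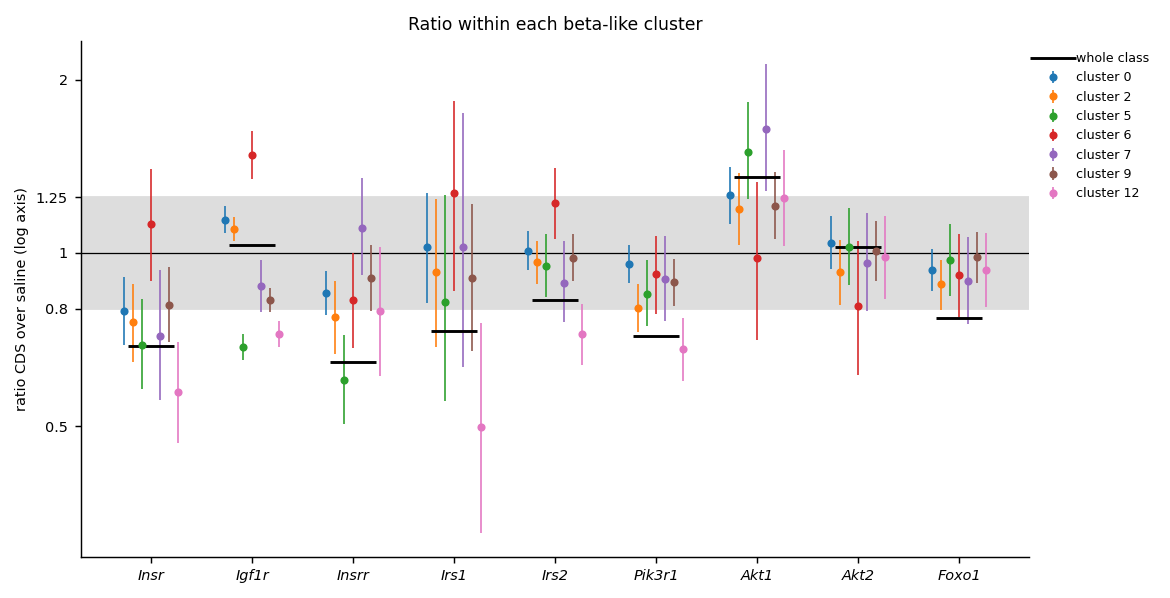
Ratio of CPM, CDS over Saline (log axis), of each gene within the 7 beta-like clusters with at least 50 cells in both libraries, points with exact conditional 95% intervals for counting error, black bars for the whole class and a grey band from 0.8 to its inverse. Insr and Akt1 keep to their own sides of 1 in 6 clusters each, Igf1r spreads from 0.685 to 1.48, and all 7 Foxo1 points lie above the black bar at 0.771.

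The share of cells with a UMI was also read at 1 depth. The 5000 UMIs are drawn from all UMIs of a cell, insulin RNA included, with no TMM factor. These shares therefore follow plain CPM, in which 50.8% of all measured genes were lower in beta-like cells, and not the TMM ratios above. At an expected 5000 UMIs per cell, Insr was seen in 12.2% of 3096 CDS beta-like cells (11.05 to 13.4, exact Clopper-Pearson) and in 20.4% of 4606 Saline ones (19.3 to 21.6), while without thinning the shares were 45.2% and 47.9% at median depths of 27787 and 15541 UMIs. Insrr was seen in 17.1% of CDS and 29.3% of Saline beta-like cells, against 1.58% and 3.02% in alpha-like cells, where its level was near that of beta cell RNA. Irs2 was seen in 28.9% of CDS and 39.5% of Saline beta-like cells, Pik3r1 in 26.5% and 40.4%, Foxo1 in 24.99% and 36.3% and Igf1r in 52.6% and 59.1%. Akt1 was seen in 18.2% (16.9 to 19.6) of CDS and 17.5% (16.4 to 18.7) of Saline beta-like cells, so at this depth its shares overlapped. In delta-like cells Akt1 was seen in 15.2% of CDS (11.9 to 18.8) and 10.4% of Saline cells (7.96 to 13.5), and in alpha-like cells in 16.9% (14.3 to 19.6) and 13.4% (11.2 to 15.98), with intervals that overlap.

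The rest of the pathway was read from 80 further genes in 6 lists. In beta-like cells 70 of the 80 were measured, and 22 were lower and 15 higher, beside 21.8% and 28.3% of all measured genes. Alpha-like cells had 7 lower and 7 higher of 64 measured, beside 13.7% and 18.9% of all genes, and delta-like cells 16 and 10 of 62, beside 19.8% and 23.9%. PP-like cells had 18 and 14 of 53, beside 24.4% and 28.2%, endothelial-like cells 11 and 12 of 54, beside 19.6% and 24.8%, and macrophage-like cells 9 and 7 of 41, beside 25.9% and 24.7%. In the list of ligands and binding proteins, 4 of 7 measured genes were higher and 1 lower in beta-like cells. Ins1 had 137642 CPM in CDS, against 85174 CPM in Saline beta-like cells (ratio 1.62), and Igf2r, which carries IGF2 to lysosomes, 53.4 and 57.4 CPM (ratio 0.931). In the list of adaptors, phosphatases and feedback genes, 4 of 18 were lower and 3 higher. Ptpn1, the phosphatase that turns the insulin receptor off, had 105 CPM in CDS, against 79.2 CPM in Saline (ratio 1.32, 1.28 to 1.36), with ratios of 1.45 in alpha-like and 1.19 in delta-like cells. The ubiquitin ligase gene Cblb had 27.5 CPM in CDS, against 43.3 CPM in Saline (ratio 0.635), and was lower in alpha-like (0.711) and delta-like cells (0.665) as well, as was the adaptor gene Gab1 (0.526, 0.789 and 0.697), which was sparse in beta-like cells at 0.648 and 1.23 CPM.

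In the PI3K list 2 of 6 measured genes were lower and 0 higher in beta-like cells, with Pik3r3, another regulatory subunit, at 33.8 CPM in CDS and 51.1 CPM in Saline (ratio 0.661, 0.630 to 0.693) and Pik3c2a at 139.6 and 153 CPM (ratio 0.913). In the list of AKT substrates and mTOR genes 9 of 20 were lower and 4 higher. Rptor, the scaffold of mTOR complex 1, had 44.5 CPM in CDS, against 73.5 CPM in Saline (ratio 0.605, 0.581 to 0.631), and was lower in alpha-like (0.666) and delta-like cells (0.598). Deptor, an inhibitor of mTOR, had ratios of 0.705, 0.792 and 0.683 in beta-like, alpha-like and delta-like cells. Akt1s1, which encodes the AKT substrate PRAS40, went the other way in the same classes, at 1.40, 1.32 and 1.41. Eif4ebp1, the translation repressor that mTOR complex 1 phosphorylates, had 143 CPM in CDS, against 85.1 CPM in Saline beta-like cells (ratio 1.68, 1.63 to 1.73), the highest of its list. In the FOXO list 3 of 8 were lower and 0 higher, with Foxo3 at 28.3 CPM in CDS and 39.0 CPM in Saline (ratio 0.727) and also lower in alpha-like (0.796) and delta-like cells (0.706), and Sesn3, a FOXO target, at 108 and 100.1 CPM (ratio 1.08). In the Ras and MAPK arm 3 of 11 were lower and 4 higher, with Mapk3, the kinase ERK1, at 63.6 CPM in CDS, against 38.7 CPM in Saline (ratio 1.64, 1.57 to 1.71), and higher in alpha-like (1.52) and delta-like cells (1.41).

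Compared with genes of like span, Rptor in beta-like cells was at -0.18 on the log2 scale, Cblb at -0.20, Deptor at -0.11 and Foxo3 at -0.17, all 4 within the limits. Akt1s1 was at 0.09 and also within them. Eif4ebp1 at 0.60, Ptpn1 at 0.53 and Mapk3 at 0.32 stayed past the upper limit, and Pik3r3 at -0.36 and Gab1 at -0.58 past the lower. In all, 6 of the 70 measured list genes were lower and 10 higher on this measure in beta-like cells, beside 15.9% and 17.2% of all genes.

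Across the 20 pairs of class and library with a level, the pattern of each member was compared with that of 11800 genes by the Pearson correlation of log2(CPM + 1), a description that carries no test since classes of a library share free RNA and depth. Insr was most like Rasa1 (0.935) and Wipf2 (0.935), Igf1r like Adm2 (0.820) and Mlph (0.725), and Insrr like Frmd5 (0.938) and Ucn3 (0.897), a beta cell hormone gene. Irs1 was most like Amer2 (0.921) and Tmem108 (0.916), Irs2 like Galns (0.901) and BC051142 (0.887), and Pik3r1 like Stxbp3 (0.884) and Batf3 (0.880). Ucn3 was among the markers that named the beta-like class, and Batf3 among those that named the dendritic-like class. The dendritic-like class, where Pik3r1 was highest, has a level in the Saline library only. Akt1 was most like Plin2 (0.916) and the glycolysis gene Gapdh (0.916), Akt2 like Vipr1 (0.845) and Skap1 (0.801), and Foxo1 like N4bp2l2 (0.908) and Atg16l2 (0.886). Among the members themselves Insr and Foxo1 had the highest correlation, 0.637, and Irs2 and Akt1 the lowest, -0.631.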

How the data were processed

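The RNA of single mouse islet cells was counted in 1 CDS library and 1 Saline library. The deposited matrices hold UMI counts per gene and barcode with no normalization, per the file headers made with Cell Ranger 7.1.0; build mm10, edgeR, Seurat 4 and Cell Ranger 7.1 stand in the submitters' processing notes, with no role given. The protocol names both the v3.1 and the v2 chemistry, and the sources used here do not give the annotation, intron counting or strand.

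The members and lists were chosen with earlier results of these data known. Cells under 500 genes, under 1000 UMIs or over 20% mitochondrial UMIs were left out, and Scrublet (scanpy 1.11.5) removed 256 CDS and 614 Saline cells as doublets; with the looser and stricter filters its automatic threshold failed, so these calls were used there too. Both libraries were clustered together without integration, with the members left out, on 2000 variable genes, 30 components and 15 neighbours at Leiden resolution 1 (leidenalg 0.10.2, igraph 0.11.9, scikit-learn 1.9.0). Clusters were named from fixed markers by a scoring rule set after the clusters had been seen. Counts were summed per class and library and scaled with TMM factors (edgeR 4.0.16, R 4.3.3), levels carry exact Poisson and ratios exact conditional 95% intervals, and no p-value was computed. Shares are the expected share of cells with a UMI over all draws of 5000 UMIs from a cell, and shallower cells were left out. Spans came from GENCODE M21, which matched 32235 of 32285 gene IDs. The calculation of ratios was tested on simulated data.

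Named besides the members are, from each of the 6 lists, the genes with the highest and lowest ratio in beta-like cells among those with at least 20 CPM in 1 library and the genes past the limits the same way in beta-like, alpha-like and delta-like cells, and the 2 genes most like each member. Some genes under this rule are not reported here. Alternatives were other cell filters, doublets kept, Leiden resolutions 0.5 and 2, the members kept for clustering, a gate on hormone RNA, other scalings (plain CPM, size factors of DESeq2 1.42.0, totals without hormone, acinar and mitochondrial genes), a mean over cells, thinned cells, a length adjustment by a running median over 501 genes, other count minimums and a fold limit of 1.5. Scripts ran on SciPy 1.17.1, matplotlib 3.10.9, pandas 2.3.3, NumPy 2.4.6 and Python 3.11.15.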

Additional observations from a re-analysis of the deposited data

Results flagged for a closer look

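Igf1r stood on different sides of 1 in 4 classes, with intervals that cover counting error only and lie apart from 1. The ratio of CDS over Saline was 1.03 in beta-like cells, against 0.749 in alpha-like, 0.678 in endothelial-like and 0.673 in macrophage-like cells. The intervals included 1 in delta-like cells at 0.944 (0.863 to 1.03) and in PP-like cells at 1.07 (0.856 to 1.35). The beta-like ratio stayed above 1 in 10 of 15 alternatives, and the geometric mean over beta-like clusters was 0.944. The difference between classes was not tested, since each group is 1 library. With doublets kept, the ratios in alpha-like, endothelial-like and macrophage-like cells were 1.05, 1.06 and 1.03. In alpha-like cells, the cells that held most Igf1r UMIs had 1.70% insulin UMIs at the median, against 1.73% in the rest of the CDS cells, and 1.74% against 1.82% in Saline cells.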

How the results depend on the processing

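No paired analysis was possible because each group is 1 library. Over the 9 genes and 6 classes, 459 alternative values of a member ratio lay inside the counting interval of the reported ratio, 78 lay outside it and 4 turned a called ratio to the other side of 1. Keeping the members among the genes for clustering could change nothing, since none was among the variable genes, and neither it nor, for ratios, the count minimums are counted here. PP-like cells formed no class of their own with doublets kept or at resolution 0.5, so those settings give no value for them. The cause of the changes below was not tested except where a smaller number of genes or cells follows from the setting. Apart from settings whose share over all measured genes was given above, the counts below have no such share beside them. They show how a count moves with the processing and do not set the members or pathway genes apart from other genes.

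Plain CPM moves the median log2 ratio of all genes to -0.33 in beta-like, -0.07 in alpha-like, -0.16 in delta-like, -0.21 in PP-like, -0.08 in endothelial-like and -0.14 in macrophage-like cells. With it 0 members were higher and 8 lower in beta-like cells, with a member median of -0.74, 4 pathway genes higher and 40 lower. Pathway genes lower were 13 in alpha-like cells and 28 in delta-like cells, where 6 were higher and the member median was -0.50. In PP-like cells 0 members and 9 pathway genes were higher, and in endothelial-like cells 6 pathway genes. With totals that leave out hormone, acinar and mitochondrial genes, 0 members were higher in beta-like cells, with a median of -0.57 and 8 pathway genes higher, pathway genes lower were 11 in alpha-like and 25 in delta-like cells, 0 members were higher in PP-like and 6 pathway genes higher in endothelial-like cells, and Foxo1 in Saline alpha-like over beta-like cells turned to 0.842. The mean over cells gave a member median of -0.31 in beta-like cells, and median-of-ratios factors gave 4 pathway genes lower in alpha-like cells. TMM factors over all class sums, chosen after seeing the data, gave a member median of -0.49 in beta-like cells, 11 pathway genes lower in alpha-like cells and 0.924 for Foxo1 in Saline alpha-like over beta-like cells.

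After length adjustment 2 members were higher and 2 lower in beta-like cells, with a median of -0.13 and 6 pathway genes lower. In alpha-like cells 1 member and 3 pathway genes were lower. In delta-like cells 2 members were higher and 3 lower, with a median of -0.12, and 6 pathway genes were higher and 5 lower. In PP-like cells 3 members were higher and 5 pathway genes lower. In endothelial-like cells 1 member and 5 pathway genes were lower, the median turned to 0.037 and Igf1r turned to 1.03. In macrophage-like cells 0 members and 5 pathway genes were lower.

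At a fold limit of 1.5, members higher and lower were 0 and 1 in beta-like, 0 and 0 in alpha-like, 0 and 3 in delta-like, 0 and 1 in PP-like and 0 and 1 in endothelial-like cells, with 0 lower in macrophage-like cells. Pathway genes higher and lower at that limit were 5 and 7 in beta-like, 3 and 1 in alpha-like, 3 and 4 in delta-like, 8 and 7 in PP-like, 2 and 7 in endothelial-like and 4 and 4 in macrophage-like cells.

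With at least 20 UMIs, pathway genes lower were 11 in alpha-like cells, 19 were higher in endothelial-like cells, and 13 were higher and 20 lower in macrophage-like cells. With no minimum, 12 were lower in alpha-like cells, 20 higher and 19 lower in endothelial-like cells beside 5 members lower, and 18 higher and 22 lower in macrophage-like cells beside 1 member higher.

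Without the clusters led by metallothionein or acute-phase genes, a setting chosen after seeing the data, 3 members were lower in beta-like cells, with a median of -0.25. By the geometric mean over beta-like clusters, also chosen after, 1 member was lower, the median was -0.11, and 3 pathway genes were higher and 7 lower.

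With doublets kept, Igf1r turned to 1.05 in alpha-like, 1.06 in endothelial-like and 1.03 in macrophage-like cells, the endothelial-like member median turned to 0.023, pathway genes higher and lower were 12 and 11 in alpha-like cells, 6 were higher in endothelial-like cells, and 1 member was higher in macrophage-like cells. With the hormone RNA gate 11 pathway genes were higher in alpha-like cells, 3 members were lower and 5 pathway genes higher in delta-like cells, and 0 members were higher and 6 lower in PP-like cells, with a median of -0.55. In thinned cells 3 pathway genes were lower in alpha-like cells, 1 member was lower in delta-like cells, 0 members were higher in PP-like cells with a median of -0.61 and 7 pathway genes higher and 7 lower, and in macrophage-like cells 1 member and 5 pathway genes were lower. At resolution 0.5 and at resolution 2, 3 members were lower and 6 pathway genes higher in delta-like cells, and at resolution 2 2 members were higher in PP-like cells. The looser filter gave 7 members lower in PP-like cells, with a median of -0.54, and the stricter filter 2 members higher there. With the looser filter the PP-like class was another set of cells, with 385 CDS and 499 Saline cells against 221 and 150.

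In beta-like cells the ratio of Insr stayed below 1 in 15 of 15 alternatives, from 0.533 to 0.914, and that of Akt1 above 1 in 15 of 15, from 1.05 to 1.37. The ratio of Igf1r ranged from 0.798 to 1.49.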
